A study of Saccharomyces cerevisiae with 16 samples.

Results

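The 39 genes described here encode the initiation, elongation and release factors of cytosolic protein synthesis in the budding yeast Saccharomyces cerevisiae. They were chosen by name and function and not by a rule on measured values, but with earlier results of these data known. All 39 symbols were found among the 6002 protein-coding genes that RefSeq (assembly R64, the assembly sacCer3 names) places on the 16 nuclear chromosomes. The mark measured was trimethylation of lysine 4 of histone H3 (H3K4me3), by CUT&RUN, in which an antibody tethers a nuclease that releases the chromatin around the mark for sequencing. The extract protocol names CUT&RUN, while the sample titles say ChIP. All strains were BY4741, a laboratory haploid. They carried synHPRT1 (a synthetic human HPRT1 locus) or synHPRT1R (the same sequence reversed). The DNA sat on a yeast artificial chromosome, or YAC, or in chromosome XI. The 8 H3K4me3 libraries were HPRT1 YAC, HPRT1 integrated, HPRT1R YAC and HPRT1R integrated, with 2 of each. The medium was SC-Leu, which lacks leucine, for YAC strains and rich YPD for integrated strains, all at 30 °C, so that the place of the insert and the medium cannot be told apart. TIF1, TEF4 and GCN3 also lie on chromosome XI, and the labels do not give the position of the insert there. Cultures were taken in mid-log growth. The 8 IgG samples were not analysed here.

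Each library is a list of peaks called by the authors, with 3463 to 4049 peaks per list and a median native width of 540 to 699 bp. The fold of a peak is the caller's ratio of reads piled up at the summit over the reads expected there. For ranks it was used only within a list, as the percentile of a peak among the native peaks of the same library. Folds printed for single genes were not scaled between lists, so that their spread over libraries also holds differences between the lists. Among the members' strongest peaks the pileup behind a fold was 117 to 409 reads, recovered from fold and p-value. The median fold of native peaks was lowest in HPRT1R YAC replicate 1, at 1.86, against 2.04 to 2.36 in the other libraries. For HPRT1 YAC replicate 2 the cell line label names HPRT1R while the title and genotype name HPRT1. Its list holds peaks on the HPRT1 contig, and without it the same number of members was marked in all remaining libraries.

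In yeast, H3K4me3 is laid down by the Set1 complex at the 5 prime ends of genes as RNA polymerase II starts to transcribe them, and it is widely read as a trace of recent transcription. Translation factors act in 3 stages. Initiation factors bring the small ribosomal subunit, the initiator tRNA and the mRNA cap together, elongation factors deliver aminoacyl-tRNA and move the ribosome, and release factors free the finished chain at a stop codon. Most of these proteins are abundant and needed for growth, and several are encoded by a pair of duplicated genes of which 1 copy may be kept for special conditions.

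Nearly all translation factor genes carried a called peak at the start in every library. A gene counted as marked where a peak touched, with 1 bp or more, its start window, which runs from 200 bp before the annotated start to 500 bp after it. By this rule 36 of 39 members were marked in all 8 libraries, where 66.5% of all protein-coding genes were. Of the others, GCN3 was marked in 7 libraries, and HEF3 and ANB1 in none. Of all genes, 14.8% were marked in no library. Each library marked 37 members, except HPRT1R integrated replicate 1, which marked 36 and missed GCN3. With the stricter demand that the summit itself lie in the window, 22 of the members were marked in all 8 libraries, and 28.8% of all genes were. The summit was never in the window for SUI1, CAF20, TEF4 and EFB1. For 8 of the 36 genes the peak also reached the start window of another gene in all 8 libraries, for 4 in some and for 24 in none. The share over all genes is not given here, so that these counts only describe the members.

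The mark at members was of middle to high rank. Averaged over libraries, the strongest start peak of the 36 genes stood above percentile 90 for 7, between 50 and 90 for 25 and below 50 for 4. The lowest member by this measure was SUI2 and the highest NIP1. Among all genes marked in 8 libraries, 15.1% stood above percentile 90 and 29.2% below 50. In the plot of percentiles by gene and library, rows of 1 colour mark genes with a steady rank and the grey rows are the unmarked copies.

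**Figure D1:**
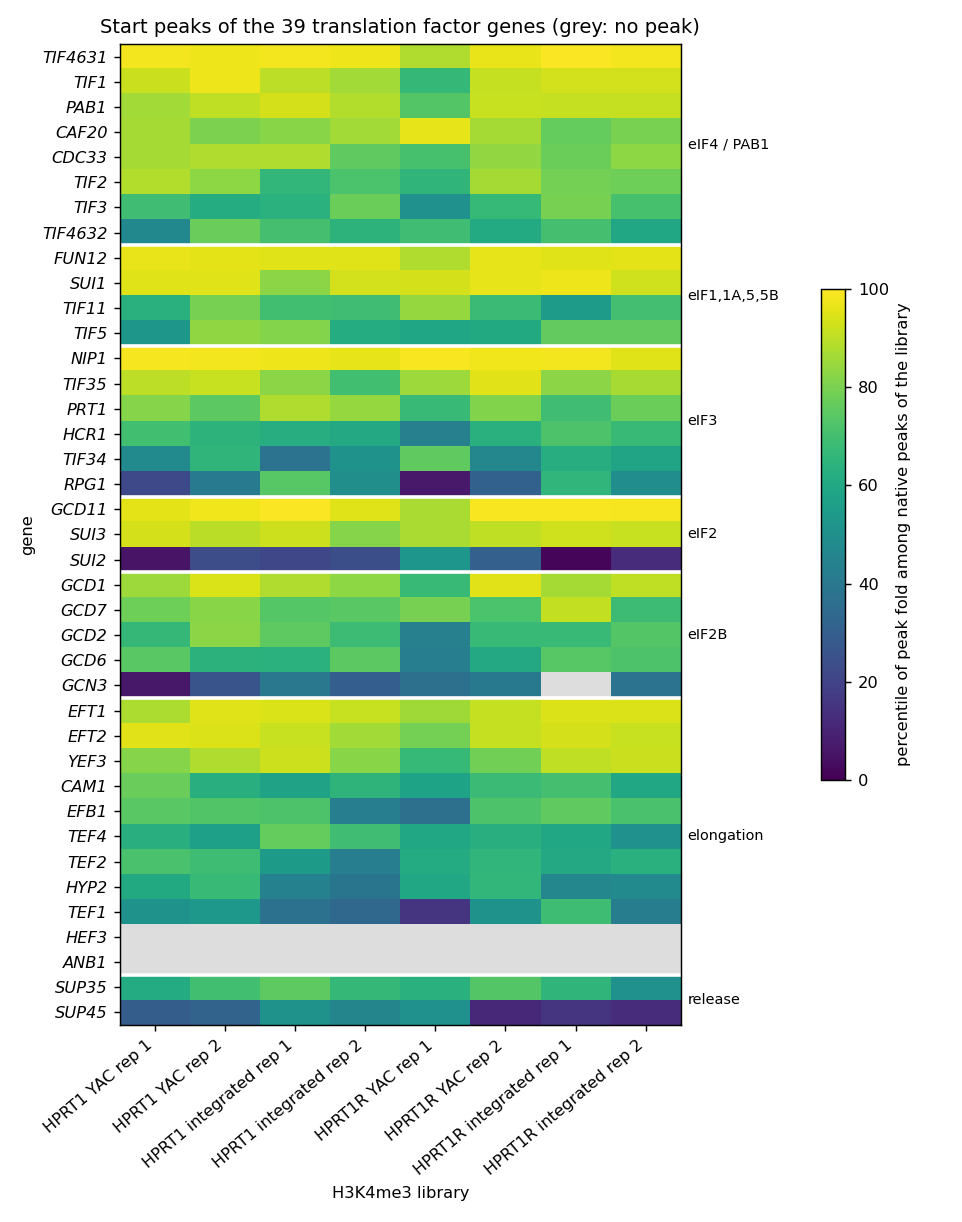
Percentile of the fold of the strongest peak in the start window, among native peaks of the same library, for 39 genes (rows, grouped by stage and complex) in 8 libraries (columns). Grey cells have no peak: HEF3 and ANB1 are grey in all 8 libraries and GCN3 in HPRT1R integrated replicate 1.

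From -850 to -140 bp, counted from the start, a smaller share of these genes than of all genes lay under a peak, and from -130 to 1180 bp a larger share did. At 500 bp downstream of the start, 66.7% ± 4.55 (SD, n = 8 libraries) of members lay under a peak, against 29.7% ± 2.70 of all genes. Taking only the genes marked in 8 libraries, the share there was 41.8%. At 500 bp upstream the order turned, with 29.5% ± 3.63 of members, 44.0% ± 2.32 of all genes and 55.5% of the genes marked in 8 libraries under a peak. Coverage of the members was greatest 110 bp downstream of the start, where 94.6% ± 0.907 lay under a peak. Of the 1001 bp from the start to 1000 bp downstream, the median member had 613 bp under peaks and the median of all genes marked in 8 libraries 456 bp. These are descriptions with no test. Gene length and the neighbouring genes differ between the sets, and their part in the difference was not tested.

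**Figure D2:**
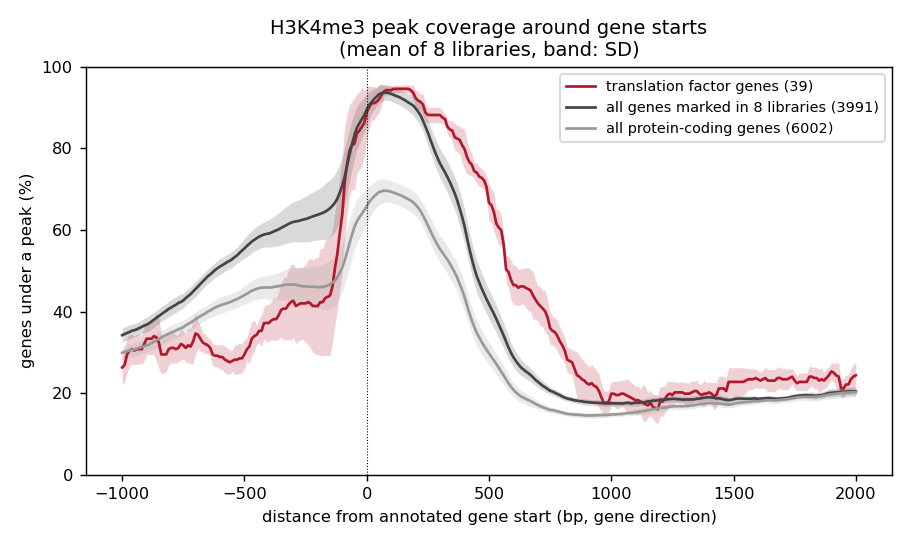
Share of genes under a called H3K4me3 peak by distance from the annotated start, for the 39 translation factor genes, the 3991 genes marked in 8 libraries and all 6002 protein-coding genes (mean of 8 libraries, band SD). The curve of the translation factors lies above that of all genes from -130 to 1180 bp, with 66.7% at 500 bp, and below it from -850 to -140 bp, with 29.5% at -500 bp.

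The cap-binding complex and its partners, which recruit the ribosome to the mRNA, were marked in all 8 libraries for 8 of 8 genes, at a median percentile of 83.0. TIF4631, which encodes a form of the scaffold eIF4G, was the second highest member, with a fold from 2.42 to 4.41 (median 3.80) and a percentile of 96.8 ± 3.56 (SD, n = 8). PAB1, the poly(A)-binding protein that contacts eIF4G, stood at 88.3 ± 6.48, CDC33, the cap-binding protein eIF4E, at 81.7 ± 6.24, and TIF3, eIF4B, at 67.6 ± 9.13 (SD, n = 8 each). CAF20, a repressor that competes for eIF4E, stood at 84.2 ± 6.09, but the summit of its peak lay outside its window in all 8 libraries. That peak spanned the start of the divergent neighbour RIM20, 264 bp away, in 8 of 8 libraries, so that the value cannot be given to CAF20 alone.

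Of the factors that scan for and select the start codon, all 4 were marked in 8 libraries. FUN12 encodes eIF5B, the GTPase that joins the subunits, and had a fold from 2.41 to 3.94 (median 3.53). Its percentile was 94.8 ± 2.83 (SD, n = 8), and its peak was shared in 8 libraries with RBG1, whose start lies 275 bp away in the opposite direction. The summit lay in the FUN12 window in 6 libraries, and the rank cannot be given to FUN12 alone. SUI1, the start codon selection factor eIF1, had a percentile of 93.3 ± 4.56 (SD, n = 8). The summit lay outside its window in all 8 libraries, at a median position of -725.5 bp, within a peak that also covered the start of the divergent SLA2, so that the rank cannot be given to SUI1 alone. In HPRT1 YAC replicate 1 and HPRT1R integrated replicate 1 that peak ended near the window's edge and a second peak lay in the window, which had 520 and 508 bp under peaks. TIF11 (eIF1A) and TIF5 (eIF5, which activates the GTPase of eIF2) stood at 70.008 ± 9.001 and 68.9 ± 11.5 (SD, n = 8 each).

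The subunits of eIF3, the large complex that holds the small ribosomal subunit, did not share a common level of mark. NIP1 had the highest and steadiest rank of all members, with a fold from 3.11 to 4.25 (median 3.73), a percentile of 97.6 ± 1.22 and 631 to 642 bp of its window under peaks (SD, n = 8). RPG1, the largest subunit, stood at 42.4 ± 22.1, ranging from percentile 6.9 in HPRT1R YAC replicate 1 to 73.9 in HPRT1 integrated replicate 1. The RPG1 values of the libraries thus spread widely, while those of NIP1 lay between 95.3 and 98.8. TIF35 stood at 85.5 ± 7.74, PRT1 at 78.0 ± 7.13, HCR1 at 62.9 ± 8.71 and TIF34 at 55.6 ± 12.1 (SD, n = 8 each). The PRT1 peak also covered the start of PRE10, a proteasome gene, in 7 libraries. Its summit lay in the PRT1 window in only 5 libraries, so that the rank cannot be given to PRT1 alone.

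The 3 subunits of eIF2, the GTPase that carries the initiator tRNA, differed as much. GCD11, its GTP-binding subunit, had folds of 3.31, 3.49, 2.39 and 4.17 in the YAC libraries and of 4.97, 3.70, 4.03 and 4.10 in the integrated ones, and a percentile of 96.6 ± 4.09 (SD, n = 8). SUI3, the beta subunit, stood at 89.98 ± 3.79 (SD, n = 8). SUI2, the alpha subunit whose phosphorylation lowers initiation under starvation, had folds of 1.47, 1.71, 1.89 and 1.89 in the YAC libraries and of 1.86, 1.86, 1.37 and 1.64 in the integrated ones. Its percentile was 21.4 ± 16.0 (SD, n = 8), the lowest of the members marked in all libraries. In each of the 8 libraries the fold of SUI2 was below that of GCD11.

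In eIF2B, the exchange factor that recharges eIF2 with GTP, the 4 genes GCD1, GCD7, GCD2 and GCD6 were marked in 8 libraries, at percentiles of 86.4 ± 8.71, 77.3 ± 6.98, 68.1 ± 11.3 and 65.8 ± 10.9 (SD, n = 8 each). GCD1 shares a divergent promoter with the proteasome gene RPT4, 276 bp away, and their peak was common in 8 libraries. The GCD7 peak also covered the start of its tandem neighbour SEC72 in 8 libraries, with the summit outside the GCD7 window in 3. The ranks of GCD1 and GCD7 cannot be given to these genes alone. GCN3, the alpha subunit, is the 1 subunit of eIF2B that cells can lose without dying. Covered bp of its window were 286, 374, 432 and 166 in the YAC libraries and 433, 527, 0 and 288 in the integrated ones. In HPRT1R integrated replicate 1, the library at 0, the nearest peak edge lay 1155 bp from its start. In the 7 libraries with a peak, its fold was 1.88 ± 0.234 (SD, n = 7). Only 6 libraries marked it when peaks needed a −log10 q of at least 5, and likewise with an equal number of peaks per library.

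The 2 release factors differed in rank. SUP35, the GTPase eRF3, stood at percentile 65.7 ± 7.65, and SUP45, the stop codon reader eRF1, at 31.0 ± 16.7 (SD, n = 8 each). The fold of SUP45 was 1.78, 1.81, 1.87 and 1.62 in the YAC libraries and 2.38, 2.19, 1.68 and 1.64 in the integrated ones. The percentile of SUP35 was above that of SUP45 in all 8 libraries.

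Elongation factor genes were marked in 8 libraries for 9 of 11 genes, and the other 2 are duplicates of marked members. EFT1 and EFT2 encode the same translocase, eEF2, and led the group, at 91.9 ± 3.62 and 90.4 ± 5.35 (SD, n = 8 each). Their coding sequences are nearly identical, so that a read may match both copies and these values are uncertain. EFB1, the exchange factor eEF1B alpha, stood at 64.7 ± 15.5 (SD, n = 8), and the summit of its peak lay outside the window in all 8 libraries, at a median of 578 bp downstream of the start. Its gene contains an intron.

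The duplicated pairs were compared within libraries, which addresses whether both copies carry the mark alike. The difference between the copies was taken in each of the 8 libraries, in covered bp of the window and in fold percentile (0 where no peak was called), and its sign was flipped in all possible ways (exact sign-flip test, two-sided). The 7 pairs gave 14 tests, over which p was adjusted by Benjamini-Hochberg. In 2 pairs a copy was at 0 in every library, which fixes p at its smallest, so only the 10 tests of the other pairs are given. The tests of those 2 pairs stayed in the adjustment, which lowers the other adjusted p-values. Over the 10 tests alone, the exact sign-flip test in covered bp gave an adjusted p of 0.0195 for TIF4631 with TIF4632. For TEF4 with CAM1 it gave the same value. The smallest p such a test can give is 0.00781. The libraries measure the same loci again, so that p speaks to repeatability.

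In 2 pairs 1 copy was marked and the other was not. HYP2 encodes eIF5A, a factor that relieves stalled ribosomes and is made in the presence of oxygen, and ANB1 is its copy used when oxygen is scarce. The window of HYP2 (chromosome V, 85676 to 86149) had 688, 698, 698 and 698 bp under peaks in the YAC libraries and 574, 606, 698 and 608 bp in the integrated ones, at a fold of 2.19 ± 0.146 (SD, n = 8). ANB1 (chromosome X, 524908 to 525381) had 0 bp in all 8 libraries, in its window and along the whole gene. HYP2 thus stood at 658 bp ± 52.9 and percentile 53.8 ± 11.0 (SD, n = 8), and no test of the pair is given, since ANB1 had no peak to vary. HYP2 lies 131 bp from the start of the divergent UTR5, and the same peak reached the start window of both genes in 8 libraries. It covered the UTR5 start itself in the 4 YAC libraries and HPRT1R integrated replicate 1, and in the other integrated libraries it began 107 to 125 bp before the HYP2 start, short of it. The summit lay 38 to 221 bp inside HYP2.

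YEF3 encodes eEF3, an ATPase of fungi that clears the ribosomal exit site, and HEF3 is its little used copy. The YEF3 window (chromosome XII, 636780 to 639914) had 466, 615, 621 and 503 bp under peaks in the YAC libraries. In the integrated libraries the whole window, 621, 505 and 619 bp were under peaks. Its fold was 2.92 ± 0.496 (SD, n = 8). HEF3 (chromosome XIV, 606319 to 609453) had 0 bp in all 8 libraries, again in the window and along the 3135 bp of the gene. YEF3 stood at 581 bp ± 80.4 and percentile 84.1 ± 8.63 (SD, n = 8), again with no test of the pair. The nearest peak edge lay 1096 to 1288 bp upstream of the HEF3 start. Where no peak was called the read depth is unknown, so that a mark below the caller's threshold was not measured in either gene.

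**Figure D3:**
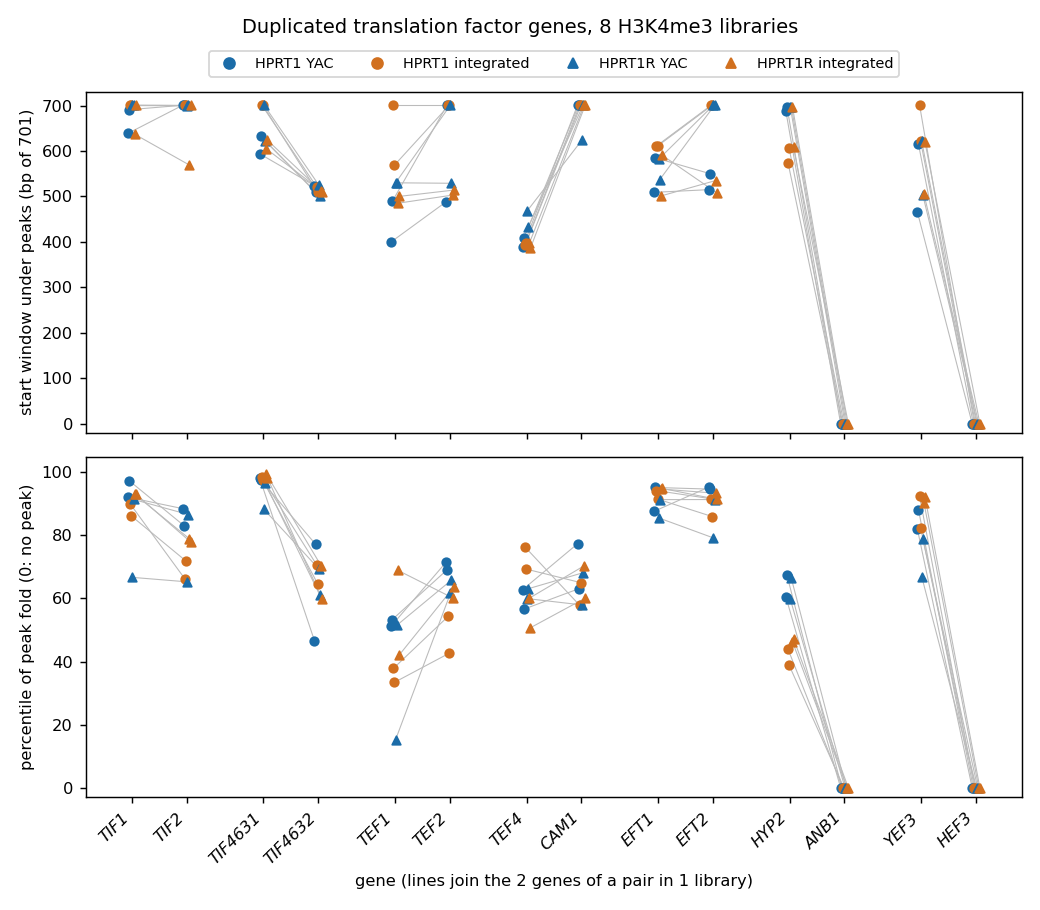
Covered bp of the start window (top) and percentile of the peak fold, 0 where no peak was called (bottom), for the 14 genes of 7 duplicated pairs. Each point is a library, and grey lines join the copies measured in the same library; ANB1 and HEF3 lie at 0 in all 8 libraries.

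TIF4631 and TIF4632, the copies of eIF4G, were both marked, at different levels. TIF4631 had from 594 bp to the whole window under peaks (median 628) and TIF4632 had 501 to 525 bp (median 512). The ranges did not overlap. TIF4631 was also higher in fold percentile in 8 of 8 libraries, by 31.8 ± 10.5, and in covered bp by 134 ± 44.4 (SD, n = 8; exact sign-flip p = 0.00781, adjusted p = 0.0137 for each). The peak of TIF4632 ended at a median of 323 bp into the gene, that of TIF4631 at 554 bp.

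TEF4 and CAM1 encode the gamma subunit of eEF1B, which helps to recharge the tRNA carrier eEF1A. They differed in covered bp of the start window and not detectably in the rank of peaks that both share with a neighbour. The TEF4 window had 388, 408, 468 and 432 bp under peaks in the YAC libraries and 393, 397, 397 and 386 bp in the integrated ones, that of CAM1 from 624 bp to the whole window. The difference was -283 bp ± 53.3 (SD, n = 8; CAM1 higher in 8 of 8; exact sign-flip p = 0.00781, adjusted p = 0.0137). Over the 1001 bp downstream of the start it was -188 bp and missed the threshold (exact sign-flip, adjusted p = 0.0597), a stretch chosen after seeing the data. In fold percentile the genes differed by -2.61 ± 10.6 (SD, n = 8; exact sign-flip p = 0.500, adjusted p = 0.538). Both lie 562 bp from the start of a divergent neighbour that shares the peak in 8 libraries, RRP14 for TEF4 and DIG1 for CAM1. For TEF4 the summit was outside its window in all 8 libraries, at a median position of -580 bp. For CAM1 it was inside the window in 3 libraries, at a median position of -281.5 bp over all. The strongest peak at TEF4 ended 185 to 231 bp into the gene. Of the 1001 bp downstream of the TEF4 start, 514 to 665 bp were under peaks, so that further peaks lay inside TEF4. Neither the ranks nor the covered bp of the window can be given to TEF4 and CAM1 alone.

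The other 3 pairs, TIF1 with TIF2 (the helicase eIF4A), TEF1 with TEF2 (eEF1A) and EFT1 with EFT2, encode identical proteins from nearly identical coding sequences. A read from such a stretch may match both copies equally. How the authors placed these reads is not given in the sources used here, so that the values of these 6 genes are uncertain inside the coding part. TIF1 stood above TIF2 in percentile in 8 of 8 libraries, by 11.4 ± 7.52 (SD, n = 8; exact sign-flip p = 0.00781, adjusted p = 0.0137), while their covered bp differed by -0.375 ± 35.0 (SD, n = 8; exact sign-flip p = 1.00). TEF1 stood below TEF2 in percentile in 7 of 8 libraries, by -16.9 ± 15.2 (SD, n = 8; exact sign-flip p = 0.0156, adjusted p = 0.0243). In covered bp TEF1 was lower in 6 libraries, equal in 1 and higher in 1, by -79.3 ± 84.2 (SD, n = 8; exact sign-flip p = 0.0312, adjusted p = 0.0437). Adjusted over the 10 tests alone, a choice made after seeing the data, the call in bp was lost (exact sign-flip, adjusted p = 0.0521). It was also lost when any of 6 libraries was left out, with an adjusted p of 0.0875 at most in the exact test, and over the 501 bp from the start to 500 bp downstream it was -14.6 bp (exact sign-flip, adjusted p = 0.175). EFT1 and EFT2 differed by 1.51 percentiles ± 4.35 and -48.1 bp ± 82.8 (SD, n = 8; exact sign-flip p = 0.352 and 0.125, adjusted p = 0.410 and 0.159).

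**Figure D4:**
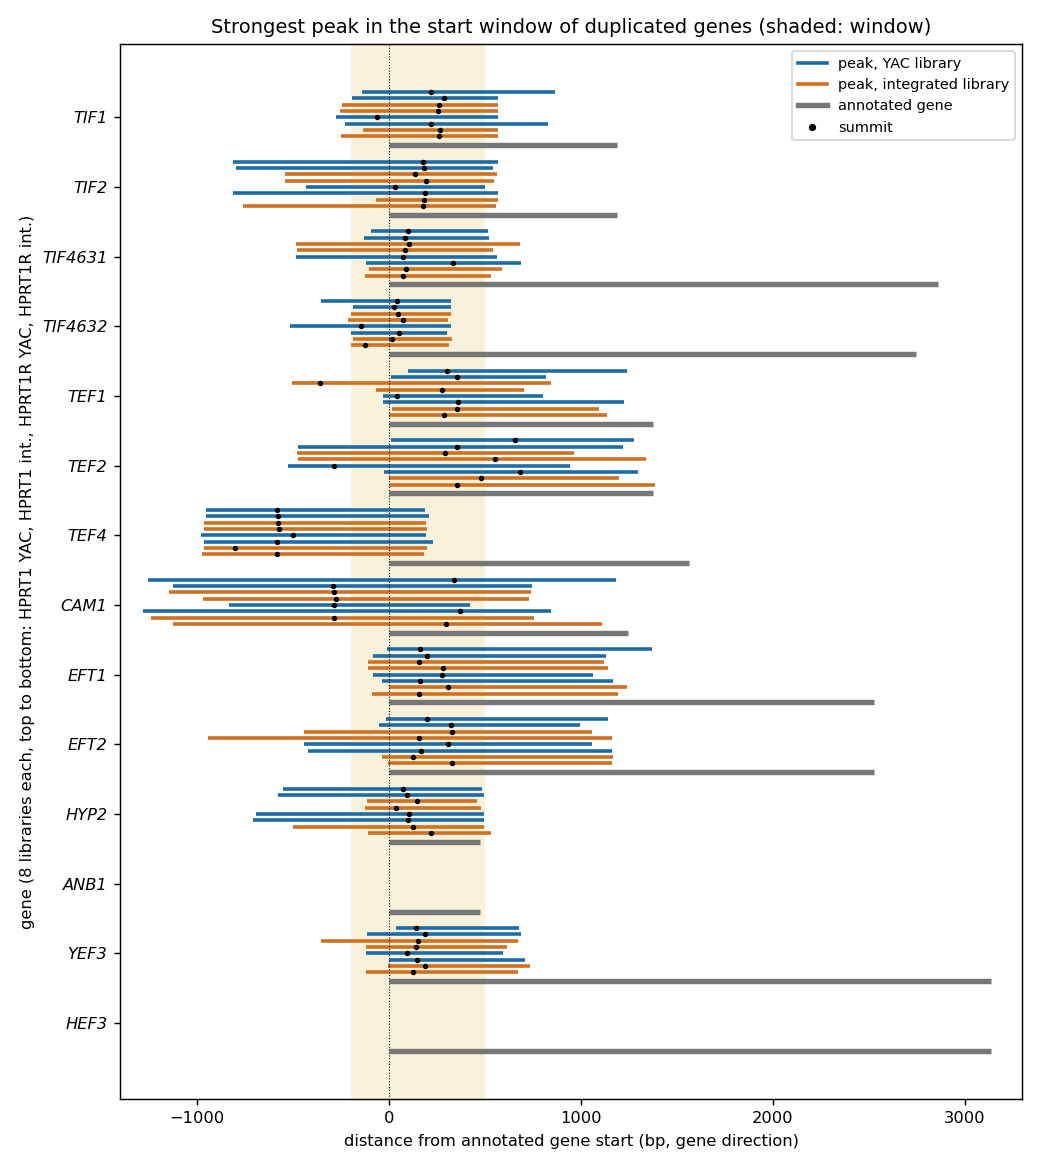
Extent and summit of the strongest peak in the start window (shaded, 200 bp upstream to 500 bp downstream) for the 14 genes of the pairs, by distance from the gene start. Each line is a library, blue for YAC and orange for integrated, and grey bars are the annotated genes; peaks of EFT1 and EFT2 end at medians of 1154 and 1150 bp, and ANB1 and HEF3 have none.

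The peaks of both eEF2 genes reached far into the coding part, to medians of 1154 bp in EFT1 and 1150 bp in EFT2. Those of TIF1 and TIF2 ended at medians of 568 and 561 bp. In the first pair all 8 libraries had at least 995 of the 1001 bp downstream of the start under peaks in both copies. All these ends lie in coding parts that are nearly identical between the copies, where the placement of reads is uncertain. The map of peak extents shows these ends beside those of the other pairs.

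YAC and integrated libraries were compared in covered bp of the start window, which asks whether insert site and medium go with a change at these native genes. Native peaks covered 2.75, 2.93, 2.76 and 2.84 Mb in the YAC libraries and 3.10, 3.13, 2.92 and 2.98 Mb in the integrated ones. The part of this library-wide extent in the differences of single genes was not tested. No member had all 4 YAC values above or below all 4 integrated values. Of all genes, 0.6% had the YAC values higher without overlap and 3.3% had them lower. By the exact two-sided permutation test of 4 against 4, whose smallest p is 0.0286, 0 of 39 members and 234 of 6002 genes had an unadjusted p under 0.05. After Benjamini-Hochberg adjustment over 6002 genes 0 genes were called, the smallest adjusted p being 0.733. The mean was higher in YAC libraries for 14 members, lower for 21 and equal for 4, while 25.9% of all genes were higher and 53.4% lower. Differences of single members ran from -118 bp for GCD11 to 134 bp for GCD2, with a median of -0.25 bp for members and -4.25 bp for all genes. Of the 22 members described in full, TEF1, EFT2 and SUI2 had YAC and integrated values without overlap in each sequence, 2 against 2, but in opposite directions, as 4.95% of all genes had, and this was not tested. The test does not show that the members were alike in both media.

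The 700 bp upstream of the start, a stretch chosen after seeing the data, separated the configurations for 3 members, HYP2, GCD11 and ANB1. The 200 bp of it nearest the start also belong to the start window, so that the 2 comparisons are not independent. For HYP2 the stretch had 552, 580, 693 and 700 bp under peaks in the YAC libraries and 112, 125, 498 and 107 bp in the integrated ones. These values are 631 bp ± 76.3 and 211 bp ± 192 (SD, n = 4 each), and the groups did not overlap. The gene on that side is UTR5, whose own window was under peaks for 622 bp, 650 bp and, in both HPRT1R libraries, its whole length in YAC and 182, 195, 568 and 177 bp in integrated libraries. For GCD11 the direction was opposite, with 119, 103, 109 and 119 bp in YAC and 700, 700, 521 and 459 bp in integrated libraries. The exact 4 against 4 permutation gave its lowest p, 0.0286, for each, but neither passed after adjustment across 6002 genes (adjusted p = 0.779). Of all genes, 0.666% had a higher and 3% a lower upstream value in YAC libraries without overlap.

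ANB1 also separated the configurations in this upstream stretch, with 98 to 125 bp in YAC and 0 bp in integrated libraries (exact permutation p = 0.0286, adjusted p = 0.779). The bases belong to a peak between ANB1 and its divergent neighbour CYC1, which encodes cytochrome c. In the YAC libraries only 53, 11, 75 and 64 bp of the CYC1 window were under peaks. By the rule of 1 bp, CYC1 thus counted as marked in the 4 YAC libraries and in 0 of the 4 integrated ones.

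**Figure D5:**
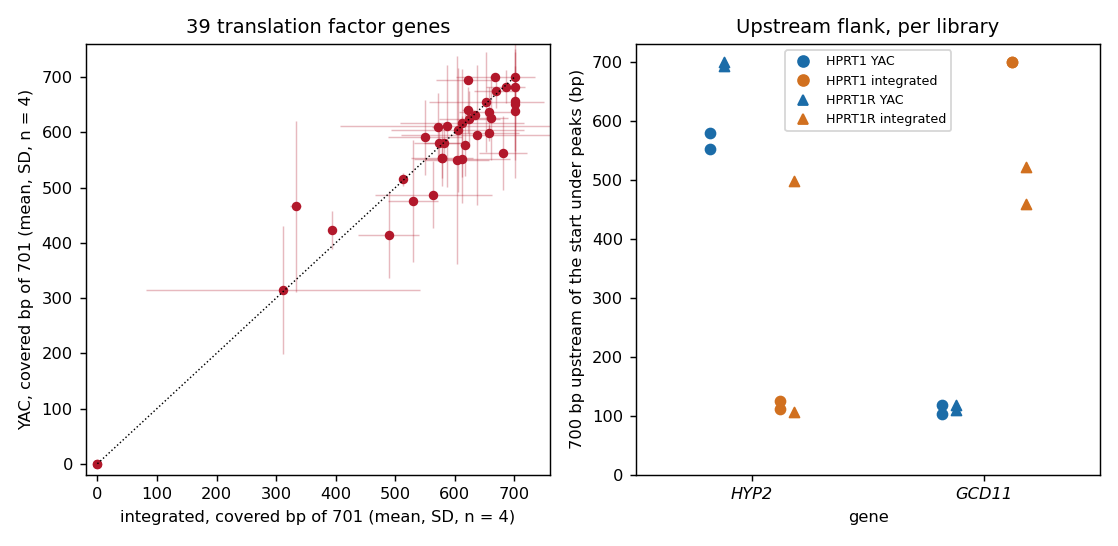
Left, covered bp of the start window in YAC against integrated libraries for 39 genes (mean, bars SD, n = 4 each; dotted line, equality). Right, bp under peaks in the 700 bp upstream of HYP2 and GCD11 in each library; the YAC values of HYP2 lie between 552 and 700 bp, those of GCD11 between 103 and 119 bp.

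HPRT1R and HPRT1 libraries were compared in the same way, 4 against 4. The groups overlapped for all 39 members, where 0.183% of genes had HPRT1R higher and 0.55% had it lower without overlap. With an unadjusted p under 0.05 there were 0 members and 44 of 6002 genes, and after adjustment 0 genes (exact permutation test, smallest adjusted p = 1). Differences of members ran from -184 bp for GCN3 to 61.5 bp for CAF20. The GCN3 value holds the library in which it had no peak.

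Other genes of the translation apparatus gave the following counts, from lists chosen by function with earlier results of these data known. Of 22 cytosolic aminoacyl-tRNA synthetases, which charge tRNAs with amino acids, 21 were marked in all 8 libraries, at a median percentile of 78.4. HTS1, for histidine, led at 96.3 ± 1.902 (SD, n = 8). SES1, the serine enzyme, had 0 bp of its window under peaks in all 8 libraries, with the nearest peak edge 820 to 1654 bp away. Of 20 further cytosolic translation genes 16 were marked in 8 libraries, HBS1, a ribosome rescue factor, highest at 99.8 ± 0.0835. GCN2, the kinase of eIF2 alpha, was marked in 4 libraries, CLU1 in 7 and DOM34, the partner of HBS1, in 6. The helicase gene DED1 stood at 85.6 ± 4.61, and its duplicate DBP1 was marked in 0 of 8 libraries. The nearest peak edge lay 1886 bp upstream of the DBP1 start in HPRT1 YAC replicate 1. In the other libraries it lay 237 to 280 bp upstream, a little beyond the 200 bp of the window. Of 8 mitochondrial translation factors 5 were marked in all libraries, TUF1, the mitochondrial elongation factor Tu, highest at 68.3 ± 14.7 (SD, n = 8). IFM1 and AIM23, mitochondrial initiation factors, were marked in 6 libraries each and RRF1, for ribosome recycling, in 0. Of 137 cytosolic ribosomal protein genes 133 were marked in 8 libraries. These shares are 95.5, 80.0, 62.5 and 97.1% in the order given, beside 92.3% of the 39 members, with no test between lists.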

How the data were processed

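H3K4me3 peak lists of 8 libraries were used. The submitters' processing notes name MACS2 2.1.0, Bowtie2 2.2.9, deepTools 3.5.0, SAMtools 1.9, bcl2fastq 2.20 and the build sacCer3. How peaks were called, whether IgG served as control and which mapping quality was kept is not given in the sources used here. The authors deposited a fold per peak (a ratio over the expected pileup), the p-value and q-value as −log10, a score in whole numbers of about 10 times the −log10 q, and the summit offset.

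Peaks were read as 1-based intervals and genes from RefSeq R64, with the strand from the systematic name. Pileups were solved from the deposited fold and p-value as a Poisson tail with a pseudocount of 1, and used for the expected pileup where they matched within 0.01. Depth where no peak was called is unknown, and with n = 8 libraries the precision is that of the spread between them. The labels do not say whether replicates were separate cultures, and p-values may then measure technical spread. The exact tests were tested on simulated data. Python 3.11.15, numpy 2.4.6, pandas 2.3.3 and matplotlib 3.10.9 were used.

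Members, lists and tests were chosen with earlier results of these data known. Named in full are the pairs, the members not marked in all 8 libraries, and the 5 members of highest and 3 of lowest mean percentile. Further members and neighbours, and UTR5, CYC1 and the upstream stretch, were added after their values were seen. Planned promoter motifs and sequences were not analysed here. Alternatives were other windows, a −log10 q of at least 5, equal numbers of peaks, other overlap rules, leaving out each library and permutation within blocks.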

Additional observations from a re-analysis of the deposited data

Results flagged for a closer look

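Among 92 sets of 4 values tested (counts of members, and covered bp and percentiles of the 22 fully described members in the YAC or integrated libraries), 17 held a library flagged as far from the other 3. The rule flags about 1 in 20 by chance only for values free of ties and limits. Where 3 values are equal, any different value is flagged, however near. The count of 17 can thus not be set against that rate. HPRT1R integrated replicate 1 marked 36 members where the other integrated libraries marked 37. In covered bp the same library had 637 for TIF1, 569 for TIF2, 508 for SUI1 and 620 for GCD11, each against the whole window in the other 3, and 642 for NIP1 against 631. HPRT1 YAC replicate 1 had 639 bp for TIF1, 688 bp for HYP2, 520 bp for SUI1 and 268 bp for SUI2, below the other YAC libraries (691 bp to the whole window for TIF1, 698 bp for HYP2, the whole window for SUI1 and 623 to 667 bp for SUI2). HPRT1R YAC replicate 1 had 700 bp for TIF2, 624 bp for CAM1 and 297 bp for RPG1, against the whole window, 1 bp more for TIF2, and 445 to 466 bp for RPG1. Its percentiles were also low for TIF4631 (88.2), TEF1 (15.2) and FUN12 (87.9), where the other YAC libraries had 96.6 to 98.2, 51.2 to 53.3 and 95.8 to 96.7. The percentile of FUN12 in HPRT1R integrated replicate 2 was 96.0, against 95.2 to 95.3. The covered bp cannot exceed the window, and many libraries stood at that limit.

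For 3 of the 22 described members the YAC-integrated difference ran in opposite directions in the 2 sequences, without overlap in either. The same held for 4.95% of all genes. The difference of differences was not tested. In covered bp it was -228 for TEF1 (-190.5 in HPRT1 and 37.5 in HPRT1R), -348 for EFT2 (-168.5 and 179.5) and -301 for SUI2 (-203.5 and 97.5).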

How the results depend on the processing

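Of 267 values under the alternatives, 241 kept their direction and their side of the threshold or, for counts of members, stayed within 1.5 times. Of the rest, 8 counts moved, 5 differences reversed, 10 fell short of the threshold and 3 newly passed it. The values include tests of the 2 pairs with a copy at 0, whose p was fixed at its smallest. The count of 241 is therefore no measure of stability. With a −log10 q of at least 5, 34 members were marked in all 8 libraries (RPG1 and SUI2 were lost; 61.8% of genes), and with equal numbers of peaks 34 (SUI2 and SUP45 were lost; 60.3% of genes). With the summit required in the window, 22 members were marked in all 8 libraries, the mean per library being 30.25. With a wide window (500 bp before to 1000 bp after the start), 2 members (TIF3, GCD11) reached the smallest p for YAC against integrated, beside 5.75% of genes, and 1 member (TIF35) for HPRT1R against HPRT1, beside 0.916%. Over 700 bp upstream it was 3 members for YAC against integrated, beside 3.67% of genes. Pair differences in covered bp under the wide window were -263 for EFT1 and EFT2 and -167 for TIF1 and TIF2, both past the threshold, and -188 for TEF4 and CAM1, no longer past it. From the start to 500 bp downstream TIF1 and TIF2 differed by 0.125 and TEF1 and TEF2 by -14.6. Over the 1001 bp downstream, chosen after seeing the data, the values were 86.4 for TIF1 and TIF2 (exact sign-flip, adjusted p = 0.0137), 0.75 for EFT1 and EFT2, and -188 for TEF4 and CAM1. GCN3 was marked in 6 libraries with a −log10 q of at least 5 or equal numbers of peaks. The TEF1 and TEF2 difference of -79.3 bp had an adjusted p of 0.0521 (exact sign-flip) over the 10 tests of pairs with both copies marked. The cause was not tested.

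Leaving out 1 library at a time gave 36 to 37 members marked in all, 0 to 2 members at the smallest p for YAC against integrated (TEF4 without HPRT1 YAC replicate 1, beside 4.35% of genes, GCD11 and HYP2 without HPRT1R integrated replicate 1, beside 3.57%), -10.1 to 8.43 bp for TIF1 and TIF2 and -90.7 to -60.3 bp for TEF1 and TEF2. The percentile difference of EFT1 and EFT2 was 0.821 to 2.83, past the threshold only without HPRT1 YAC replicate 1 (exact sign-flip, adjusted p = 0.0437). With the replicate number as a block, 0 members reached the smallest p of 0.0556 in either contrast, as without it. Differences between replicates 1 and 2 correlated between groups at -0.176 to 0.135 over genes. Such weak correlations do not tell whether libraries of the same number were handled together.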

Other observations

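The genes next to the members were marked to differing degrees. CHD1, a chromatin remodeller gene in tandem upstream of PAB1, stood at a mean percentile of 98.2, above every member. GLG2, upstream of TIF2 at a gap of 293 bp, was marked in 7 libraries at a mean percentile of 5.94, and GLG1, upstream of TIF1 at 366 bp, in 8 libraries at 31.2. TKL2, the minor transketolase gene divergent from TEF2 at a gap of 1233 bp, was marked in 0 of 8 libraries. The window of CYC1 had 53, 11, 75 and 64 bp under peaks in the YAC libraries and 0 bp in each integrated library.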
